A study of Rattus norvegicus with 6 samples.

Results

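The transcription factor family NF-kB and its inhibitors were followed as 10 genes in primary rat mesenchymal stem cells (BMSCs) taken from femoral bone marrow. They comprise the 5 subunit genes Nfkb1, Nfkb2, Rela, Relb and Rel, and 5 inhibitor or feedback genes, Nfkbia, Nfkbib, Nfkbie, Nfkbiz and Tnfaip3. The genes were taken by symbol from a deposited table of 37209 gene symbols, which held a row for all 10. The exposed group was wild-type cells given 3% cigarette smoke extract (CSE), a liquid that carries the soluble part of smoke, for 6 h, in 3 libraries. The control group was wild-type cells kept for 6 h in serum-free medium, also in 3 libraries. Both groups were grown in serum-containing medium beforehand. The sources used here do not give the medium of the extract, the age of the rats, or whether libraries came from separate cultures. The p-values therefore cover the spread among these libraries alone, which may be technical. The study's design compares exposed with unexposed cells at 1 matched time.

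NF-kB acts as pairs of subunits. In resting cells the inhibitor proteins of the IkB group hold these pairs in the cytoplasm, and signals from cytokine, microbial or stress receptors activate the IKK kinase complex, which marks the inhibitors for destruction and frees the pairs to enter the nucleus. Many NF-kB targets are themselves inhibitors, Nfkbia and Tnfaip3 foremost, which gives the pathway a negative feedback loop. In bone marrow stroma the pathway is known for control of chemokines and of factors that regulate osteoclasts. RNA levels report neither the breakdown of IkB protein nor the nuclear entry of the subunits.

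The promoters of the members are shown because several members are known targets of NF-kB. Members with the same motif moved differently, and whether the motif has a part in their changes was not tested. RefSeq promoters on the rat build GRCr8, from 250 bases before to 50 after an annotated transcript start, were found for 9 members. The submitters' processing notes name another build, Rnor_6.0, for the study. A match to the kB consensus, the 10-base site bound by NF-kB, was searched on both strands. It lay in 7 of the 9 promoters, against 7.60% of all 27457 rat promoters in the table. Rela and Nfkbib had no match, which says only that these letters are not in this window, and Relb is named only. In the stretches printed 5′ to 3′ on the strand of the gene, capitals mark bases covered by a match on either strand. The first 3 run from the base 250 before the start to the base before it, and the others are windows around 1 match. They are Nfkbia at chr6:78597073-78597322 on the minus strand, Rel at chr14:101921939-101922188 on the minus strand, Tnfaip3 at chr1:15543980-15544229 on the minus strand, Nfkbiz at chr11:58251683-58251742 on the plus strand, Nfkb1 at chr2:226805433-226805484 on the minus strand, Nfkb2 at chr1:255108329-255108388 on the plus strand and Nfkbie at chr9:22948002-22948061 on the minus strand.
Nfkbia: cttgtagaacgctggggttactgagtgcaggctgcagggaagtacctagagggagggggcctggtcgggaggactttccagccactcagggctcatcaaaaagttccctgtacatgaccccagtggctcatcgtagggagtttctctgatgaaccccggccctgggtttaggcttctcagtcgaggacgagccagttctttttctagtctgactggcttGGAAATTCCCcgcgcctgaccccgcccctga
Rel: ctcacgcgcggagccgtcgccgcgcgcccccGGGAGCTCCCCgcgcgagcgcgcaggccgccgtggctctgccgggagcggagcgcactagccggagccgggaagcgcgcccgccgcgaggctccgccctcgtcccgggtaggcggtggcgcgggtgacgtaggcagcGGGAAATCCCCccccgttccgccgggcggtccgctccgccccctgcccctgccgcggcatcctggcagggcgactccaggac
Tnfaip3: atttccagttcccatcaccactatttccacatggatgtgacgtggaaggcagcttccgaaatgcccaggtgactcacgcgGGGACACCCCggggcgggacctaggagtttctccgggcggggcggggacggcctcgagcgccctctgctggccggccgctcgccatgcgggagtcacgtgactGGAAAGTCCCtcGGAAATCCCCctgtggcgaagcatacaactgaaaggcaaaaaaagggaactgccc
Nfkbiz: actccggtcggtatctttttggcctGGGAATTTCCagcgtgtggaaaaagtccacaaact
Nfkb1: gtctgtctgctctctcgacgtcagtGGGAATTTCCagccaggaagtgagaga
Nfkb2: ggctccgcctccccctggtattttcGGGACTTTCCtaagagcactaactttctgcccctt
Nfkbie: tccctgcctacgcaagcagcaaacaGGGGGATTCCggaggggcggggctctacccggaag

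Matches covered 3 separate stretches of the Tnfaip3 promoter, starting at positions -170, -67 and -55 from the transcript start, and 2 of the Rel promoter, starting at -219 and -82. In Rel the matches within each stretch overlap, since the letters fit the consensus on both strands and again 1 base further. The other 5 promoters held 1 match each, at -31 in Nfkbia, -13 in Nfkbiz, -20 in Nfkb2, -164 in Nfkbie and 4 bases into the transcript in Nfkb1. The same 10 letters, GGGAATTTCC, occurred in Nfkbia on the opposite strand and in Nfkbiz and Nfkb1 on the strand of the gene. GGGACTTTCC occurred in Nfkb2 and, on the opposite strand, in Tnfaip3. Other motifs were less common among the 9 member promoters. TGACNNNGC, the core of the antioxidant response element read by NRF2, was found in Nfkbia and Nfkbie, against 12.2% of all promoters. GAANNTTC, a core of the heat shock element, was found in Rel, against 8.34%. TGANTCA, which includes the AP-1 site, was found in Tnfaip3, Nfkb2 and Nfkbie, against 7.33%. GCGTG, the core read by the aryl hydrocarbon receptor, was found in 6 of the 9, against 31.1%. The AP-1 and aryl hydrocarbon receptor matches in Tnfaip3 overlap by 2 bases. All matches are descriptions of letters and not measured binding sites.

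**Figure D1:**
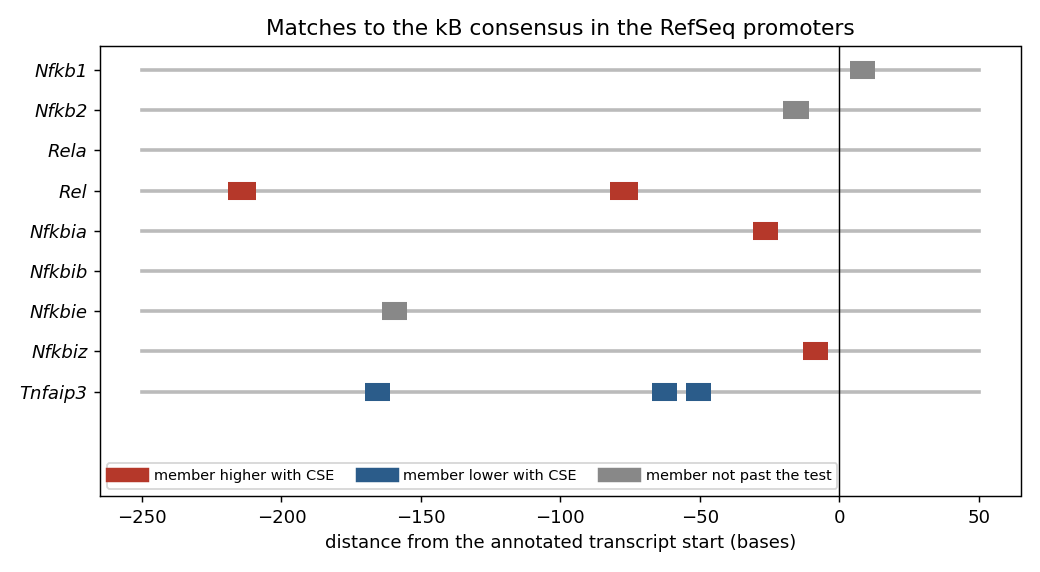
Matches to the kB consensus in the promoters of 9 members. Each grey line is 1 promoter and the x axis is the distance from the annotated transcript start in bases; blocks are stretches covered by a match, coloured by whether the member was higher or lower with CSE or did not pass the test. Matches stand in members of all 3 kinds, with 3 stretches in Tnfaip3, the member that fell. A link between matches and changes was not tested.

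Libraries held 19433637 to 22589327 counts with CSE and 15958621 to 18651194 in the control. Levels are counts per 1000000 counts of the TMM-scaled library (CPM). Differences are CSE over control, on the log2 scale with their SE, from edgeR's quasi-likelihood test, adjusted over all 13390 genes tested. Levels are not divided by transcript length, so they are compared between groups and not between genes. Every member had at least 74 counts in each library and passed the filter on low counts. The spread between the 3 libraries of a group, as SD over mean, was at most 14.5%, for Nfkbib with CSE, and at least 0.708%, for Nfkbib in the control. In the GRCr8 gene table, no annotated gene overlapped a member except a predicted gene over Nfkbib. That gene had 3 counts summed over the CSE libraries and 1 summed over the control libraries.

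The labelled cell type was checked against 10 stromal markers, all tested, which summed to 31226 to 32533 CPM with CSE and 32077 to 35277 CPM in the control. Col1a1, the type I collagen gene, makes up most of that sum, and the other 9 summed to 5900 to 6053 CPM with CSE and 5119 to 5437 CPM in the control. The groups overlapped in the full sum, whereas without Col1a1 every CSE library was above every control library. Of the 10, 3 rose, 5 fell and 2 did not pass. Cd44 was at 1.09 ± 0.05 on the log2 scale, whereas Cxcl12 was at −2.17 ± 0.06, Pdgfra at −0.97 ± 0.06 and Pdgfrb at −0.87 ± 0.05. Macrophage markers were present in these cultures as well. Among 14 macrophage markers, Cd163 was listed at 0. Of the other 13, 2 rose, 5 fell and 6 were not called. Their summed level was 1762 to 1817 CPM with CSE and 1626 to 1671 CPM in the control, or 363 to 388 CPM with CSE and 470 to 477 CPM in the control without Lyz2. The list did not move evenly. Cx3cr1, the fractalkine receptor gene, averaged 1.10 ± 0.200 CPM with CSE and 31.4 ± 1.46 CPM in the control, and the lipopolysaccharide co-receptor gene Cd14 averaged 16.5 ± 1.14 CPM with CSE and 45.2 ± 3.97 CPM in the control (SD, n = 3 each), differences on the log2 scale of −4.82 ± 0.13 and −1.45 ± 0.08. Csf1r was at −0.25 ± 0.05, and Adgre1 averaged 52.5 CPM with CSE and 52.4 CPM in the control. The edgeR adjusted p of the markers named as changed was at most 2.6e-04, that of Csf1r. Lymphocyte markers summed to at most 0.0545 CPM in any library, with 4 of 6 listed at 0. Of the 4 neutrophil markers, Elane and S100a9 were listed at 0, Mpo had 1, 0 and 1 counts and S100a8 had 6, 2 and 0 counts with CSE, and neither had a count in the control. The 4 endothelial markers summed to 3.27 to 3.71 CPM with CSE and 6.36 to 7.22 CPM in the control. Rel, Tnfaip3, Tlr2 and Il1b are known from macrophages among other cells, and the part of macrophages in the results was not tested. In bulk RNA, fewer cells of a type and less RNA per cell cannot be told apart.

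Of the 10 members, 6 rose with CSE, 1 fell and 3 did not pass the test. Rela, Relb, Rel, Nfkbia, Nfkbib and Nfkbiz rose, Tnfaip3 fell, and Nfkb1, Nfkb2 and Nfkbie did not pass. Among all tested genes 73.9% passed, so the 7 members called are no more than the background. Higher calls made up 36.3% of tested genes and lower calls 37.5%. The groups did not overlap in 8 of the 10 members, 7 with CSE above and 1 with CSE below, against 75.8% of tested genes, 37.2% above and 38.6% below. At least 2-fold rises were found in 5 members, against 10.7% of tested genes. They numbered 3 under total-count scaling, and 4 under upper-quartile scaling or without CSE replicate 1 or 3. The median log2 fold change of the members was 0.94, beside −0.02 over all tested genes. The members were chosen with earlier results of these data known, so these shares and medians are descriptions only. Each of the 7 calls held in all 13 alternative settings, with a highest adjusted p of 1.7e-04, that of Tnfaip3 with a control library left out.

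**Figure D2:**
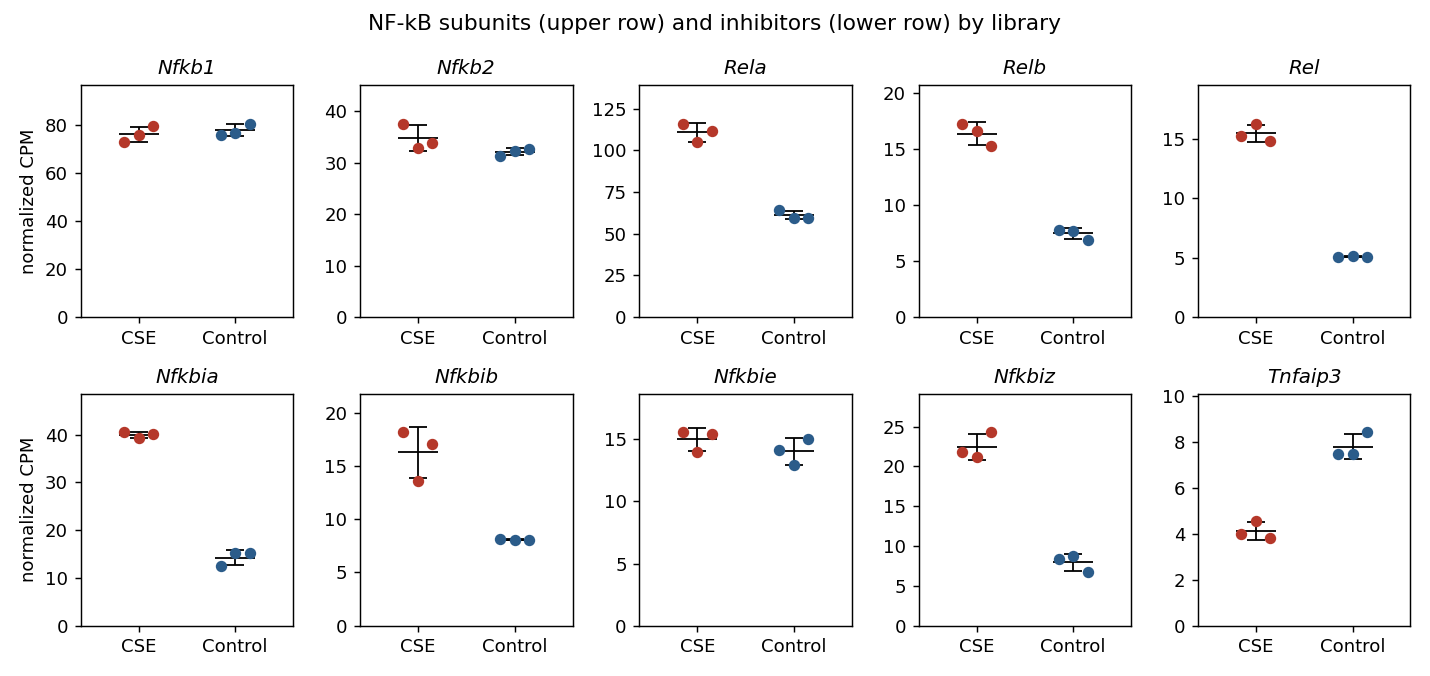
Normalized CPM of the 10 members in each library, with CSE left of control. Points are libraries, and bars are the mean and SD of 3 libraries. The groups are apart in 8 members; Nfkb1 and Nfkbie overlap, and in Nfkb2 the lowest CSE library is at 32.9 CPM and the highest control library at 32.7 CPM.

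Among the subunits, Rel showed the largest change. Rel encodes c-Rel, an activating subunit best known from lymphoid and myeloid cells. It had 15.3, 16.3 and 14.8 CPM with CSE, against 5.06, 5.17 and 5.05 CPM in control libraries. All CSE libraries lay well above the narrow control range, with a log2 change of 1.60 ± 0.11 (edgeR adjusted p = 6.2e-10), or 3.03-fold. Only 5.35% of tested genes had a higher log2 fold change.

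Relb, the activating subunit that pairs mainly with the Nfkb2 product p52 in the non-canonical pathway, had 17.3, 16.6 and 15.3 CPM with CSE, against 7.77, 7.70 and 6.91 CPM in the control. The groups did not overlap, and the difference was 1.14 ± 0.11 on the log2 scale (edgeR adjusted p = 2.9e-08), or 2.20-fold. Rela, which encodes p65, the main activating subunit of the canonical pathway, had 116, 105 and 112 CPM with CSE, against 63.9, 59.5 and 59.6 CPM in the control. Its groups were also apart, at 0.86 ± 0.06 (edgeR adjusted p = 2.8e-10), or 1.82-fold.

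The genes of both precursor subunits did not pass the test. Nfkb1 encodes p105, the precursor of p50, and Nfkb2 encodes p100, the precursor of p52; each precursor also acts as an inhibitor until it is processed. Nfkb1 had 72.9, 75.8 and 79.3 CPM with CSE, against 75.7, 76.7 and 80.5 CPM in the control. The groups overlapped, and the log2 fold change of −0.03 had a 95% interval of −0.15 to 0.08 (edgeR adjusted p = 0.612). Nfkb2 had 37.6, 32.9 and 33.7 CPM with CSE, against 31.3, 32.4 and 32.7 CPM in the control. Its CSE libraries were narrowly above the control libraries, but the log2 fold change of 0.11 did not pass (95% interval −0.03 to 0.26, edgeR adjusted p = 0.144). Under total-count scaling Nfkb1 was called lower, at −0.22 (edgeR adjusted p = 0.0015), and under upper-quartile scaling too, at −0.17 (edgeR adjusted p = 0.0107). Those scalings put the median of all tested genes at −0.21 and −0.15.

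Among the inhibitors, Nfkbia and Nfkbiz rose by similar amounts. Nfkbia encodes IkB-alpha, the rapidly degraded and resynthesised inhibitor of Rela-containing pairs. It had 40.5, 39.2 and 40.2 CPM with CSE, against 12.4, 15.1 and 15.2 CPM in the control. The CSE libraries were tightly grouped above all control libraries, of which 1 was lower than the other two. The difference was 1.48 ± 0.08 on the log2 scale (edgeR adjusted p = 2.1e-11), or 2.80-fold. Nfkbiz encodes IkB-zeta, a nuclear member of the IkB family that acts mainly with p50 to turn on secondary response genes, so its name as an inhibitor covers only part of what it does. It had 21.8, 21.2 and 24.3 CPM with CSE, against 8.36, 8.75 and 6.71 CPM in the control, again with no overlap. Its log2 value was 1.50 ± 0.11 (edgeR adjusted p = 1.1e-09), or 2.83-fold.

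Nfkbib and Nfkbie, the genes of the cytoplasmic inhibitors IkB-beta and IkB-epsilon, differed. Nfkbib had 18.2, 13.6 and 17.1 CPM with CSE, against 8.13, 8.01 and 8.07 CPM in the control. One CSE library stood lower than the other two but above every control library. The difference was 1.02 ± 0.12 on the log2 scale (edgeR adjusted p = 4.7e-07), or 2.02-fold. Over the 13 alternatives it ranged from 0.83 to 1.13, so a rise of at least 2-fold did not hold in all of them. Nfkbie had 15.6, 14.0 and 15.5 CPM with CSE, against 14.1, 12.9 and 15.0 CPM in the control. Its groups overlapped, and its log2 fold change of 0.10 had a 95% interval of −0.11 to 0.30 (edgeR adjusted p = 0.374).

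Tnfaip3 was the only member that fell. It encodes A20, a ubiquitin-editing enzyme that shuts off signalling upstream of IKK. It had 84, 84 and 74 counts with CSE, against 127, 142 and 167 counts in the control, or 3.98, 4.58 and 3.82 CPM against 7.48, 7.49 and 8.43 CPM. Every CSE library was below every control library, also in raw counts, although the CSE libraries were deeper. The difference was −0.92 ± 0.14 on the log2 scale (edgeR adjusted p = 1.6e-05), so that control levels were 1.89-fold those with CSE. Tnfaip3 and Nfkbia thus moved in opposite directions. Both promoters printed above hold kB matches, and whether NF-kB acted there was not tested.

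**Figure D3:**
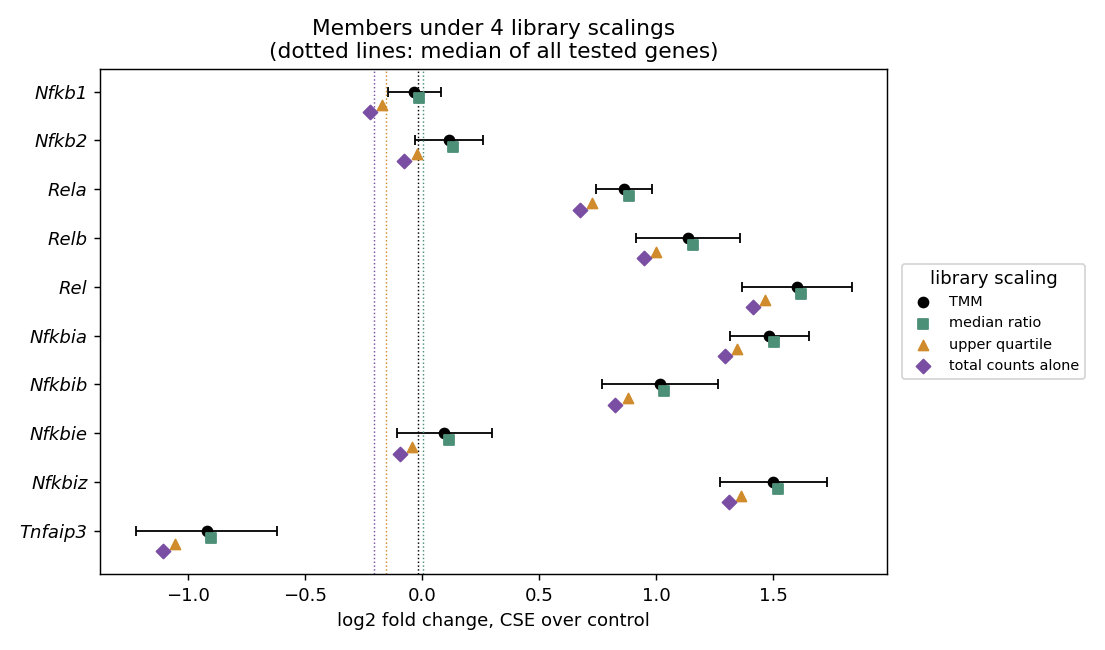
Log2 fold change of CSE over control (x axis) for each member under 4 library scalings. Bars are the 95% intervals of the TMM fit, and dotted lines are the median of all tested genes under each scaling. The 7 called members keep their side of 0 under the 4 scalings, whereas Nfkb2 and Nfkbie stand on either side of 0 and Nfkb1 lies below 0 in all 4.

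Ratios of 2 members within a library do not depend on how libraries are scaled, and their change between groups gives the unequal movement of the members. Of 9 ratios computed, 8 did not overlap between the groups, each with an exact 2-sided permutation p of 0.1, the smallest that 3 libraries against 3 allow (0.1125 after Benjamini-Hochberg adjustment over the 9). Of all tested genes taken singly, 75.8% did not overlap, and the share over all gene pairs was not computed. Several ratios set a member that rose against one that fell or did not pass, so their separation repeats the results above. The log2 ratio of Rela to Nfkb1 was 0.54 ± 0.11 with CSE and −0.35 ± 0.10 in control libraries (SD, n = 3 each, exact permutation p = 0.1). That is a 1.86-fold shift to Rela RNA, while Nfkb1 by itself did not pass the test. The ratio of Relb to Nfkb2 shifted 2.03-fold and that of Rel to Rela 1.67-fold. Nfkbia gained on its main binding partner, with a log2 ratio to Rela of −1.47 ± 0.05 with CSE and −2.10 ± 0.22 in control libraries (SD, n = 3 each), a 1.55-fold shift. Among the inhibitors, Nfkbia gained 1.41-fold on Nfkbib and 2.63-fold on Nfkbie. Nfkbia gained 5.32-fold on Tnfaip3. The ratio of Nfkbiz to Nfkbia overlapped between the groups, with a log2 mean of −0.83 ± 0.09 with CSE and −0.85 ± 0.31 in control libraries (SD, n = 3 each, exact permutation p = 1).

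**Figure D4:**
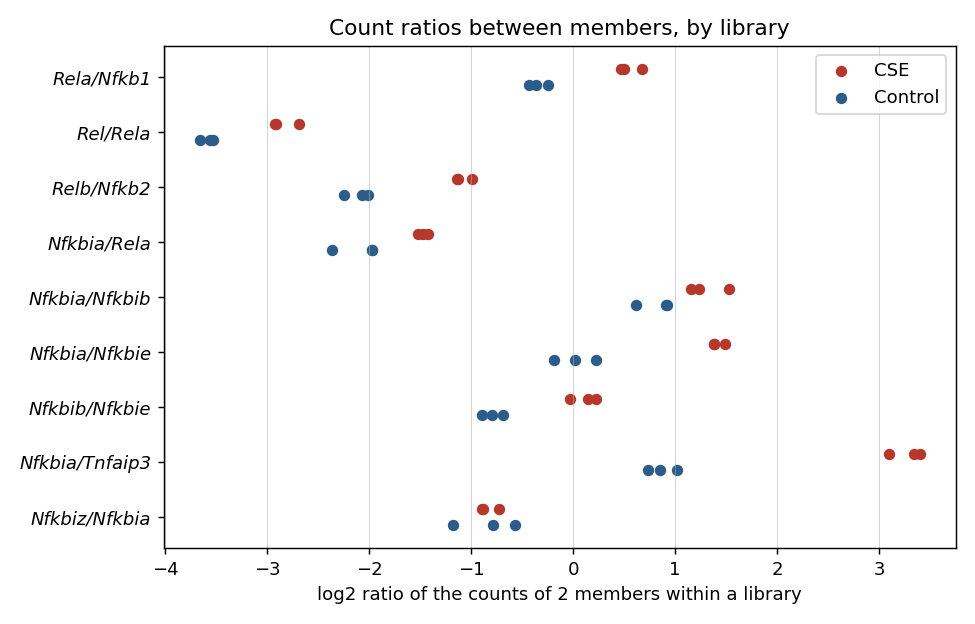
Log2 ratio of the counts of 2 members within each library (x axis), with CSE points above control points in each row. Since counts are not divided by length, only the distance between the groups is read. The groups are apart in 8 of 9 ratios and overlap for Nfkbiz over Nfkbia. The share over all gene pairs was not computed.

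The rest of the pathway was described through 7 lists holding 107 genes, of which 86 were tested, 11 were below the filter on low counts, 8 were listed at 0 in every library and 2 had no matching row. Of the 86, 40 rose, 26 fell and 20 did not pass, a called share close to the 73.9% of all tested genes. Over all tested genes 36.3% rose and 37.5% fell, the shares to set beside the counts of every list. The lists are small, and no set test was run. Among the 8 listed at 0 are Ikbkg, which encodes the scaffold of the IKK complex, Tab3, Irak1, Xiap and Cd40lg. All 5 are assigned to chromosome X, where 563 of 574 named protein-coding genes in the table were listed at 0. The zeros of these 5 are therefore not read as a lack of expression. The other 3 are the ligand genes Tnfsf11, Lta and Ltb.

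Receptor genes moved in both directions, and no tested ligand gene rose, where 36.3% of all tested genes rose and 37.5% fell. Of 12 tested receptor genes 4 rose, 6 fell and 2 did not pass. All 4 that rose stayed below 2-fold. Tnfrsf1a, a TNF receptor gene, was at 0.90 ± 0.05 on the log2 scale, with means of 194 CPM with CSE and 104 CPM in the control. Tnfrsf12a was at 0.72 ± 0.05, Tnfrsf1b at 0.79 ± 0.09 and Ltbr at 0.32 ± 0.06. Under total-count scaling 3 receptor genes rose. The median of the list was −0.37 on the log2 scale, or −0.56 under total-count scaling and −0.23 in DESeq2. Tlr2, the receptor for bacterial lipoproteins, averaged 2.84 ± 0.301 CPM with CSE and 18.1 ± 1.02 CPM in control libraries (SD, n = 3 each), a difference on the log2 scale of −2.68 ± 0.13. Tlr3, Tlr4 and the RANK gene Tnfrsf11a were at −2.26 ± 0.12, −1.05 ± 0.18 and −2.25 ± 0.20. Tnfrsf11b, the gene of the RANKL decoy osteoprotegerin, was at −1.93 ± 0.07. Of 5 tested ligand genes none rose in edgeR, DESeq2 or limma-voom, or at an unadjusted p below 0.05 in edgeR, while 4 fell and 1 did not pass. Their median was −0.997. Il1b, the interleukin 1 beta gene, had 1, 5 and 1 counts with CSE, against 113, 99 and 124 counts in the control, and a log2 fold change of −5.59 ± 0.37. Without the second CSE library, the one with 5 counts, it was −6.75. Il33 was at −1.85 ± 0.23. Tnf was below the filter, with no count in the CSE libraries and 4, 0 and 1 counts in the control. The edgeR adjusted p of the called genes in this paragraph was at most 1.5e-04, that of Ltbr.

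Among kinase and adaptor genes that carry the signal to the inhibitors, more rose than fell. Over all tested genes the shares were 36.3% higher and 37.5% lower. Of 13 tested genes of the IKK group and its upstream kinases, 7 rose, 3 fell and 3 fell short of the threshold. Their median was 0.47, or 0.28 under total-count scaling. Of the IKK complex itself, Ikbkb did not pass, at 0.05 ± 0.06 (edgeR adjusted p = 0.489), and Chuk was at 0.47 ± 0.06. Map3k14, which encodes NIK, the kinase of the non-canonical pathway, averaged 42.6 ± 3.03 CPM with CSE and 12.2 ± 0.941 CPM in control libraries (SD, n = 3 each), a difference on the log2 scale of 1.81 ± 0.08. Tbk1 and Ikbke, the genes of both IKK-related kinases, moved in opposite directions, at 1.39 ± 0.07 and −2.23 ± 0.11. Ripk2, which relays signals from NOD receptors, was at 1.38 ± 0.08, and Map3k8 at 1.04 ± 0.20. Of 15 tested adaptor and ubiquitin ligase genes 9 rose, 3 fell and 3 fell short of it. Their median was 0.30. Under upper-quartile scaling it was 0.16 with 8 genes higher, and under total-count scaling 0.11 with 6 higher. The ligase gene Traf6 was at 1.04 ± 0.10 and the Toll-like receptor adaptor gene Ticam1 at 1.21 ± 0.07, whereas Tradd, the adaptor gene of the TNF receptor, was at −1.10 ± 0.09. The edgeR adjusted p of the called genes named here was at most 1.3e-04, that of Map3k8.

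Other inhibitory genes were mixed. Of 14 tested further negative regulators 7 rose, 4 fell and 3 were not called. Their median of 0.15 was 0.30 in DESeq2, 0.27 with no filter, 0.013 under upper-quartile scaling and −0.04 under total-count scaling, where 6 were higher and 7 lower. Tollip averaged 148 ± 4.37 CPM with CSE and 54.1 ± 0.363 CPM in control libraries (SD, n = 3 each), a difference on the log2 scale of 1.45 ± 0.05. Irak3, which restrains Toll-like receptor signalling, was at 1.54 ± 0.09, and Zc3h12a, the gene of the RNase regnase-1 that degrades inflammatory messages, at 1.43 ± 0.09. Pdlim2, whose product directs nuclear p65 to degradation, was at −1.31 ± 0.07. Of the 3 other IkB-like genes 1 rose, 1 fell and 1 did not pass, and none reached a 2-fold change. The edgeR adjusted p of the genes named here was at most 2.0e-10.

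Known NF-kB target genes did not move as 1 group. Of 32 listed, 24 were tested, 12 rose, 5 fell and 7 were not called. Their median was 0.22. Under upper-quartile scaling 9 were higher and 5 lower with a median of 0.080, and under total-count scaling 8 were higher and 7 lower with a median of 0.029. Cxcl1, a neutrophil chemokine gene, had 54.0, 55.8 and 43.2 CPM with CSE, against 2.41, 2.11 and 1.77 CPM in the control, a difference of 4.61 ± 0.13 on the log2 scale. Ccl2, a monocyte chemokine gene, had 151, 154 and 119 CPM with CSE, against 25.8, 21.5 and 23.2 CPM in the control, at 2.59 ± 0.09. In both chemokine genes the third CSE library was the lowest of its group and still far above the control range. The early response gene Ier3 was at 1.78 ± 0.05, the adhesion molecule gene Vcam1 at 2.51 ± 0.37 and the prostaglandin E synthase gene Ptges at 1.60 ± 0.38. The urokinase gene Plau was at −1.48 ± 0.08. The edgeR adjusted p of these called genes was at most 9.7e-04, that of Ptges. Counts of Vcam1 were low, with 40, 38 and 32 in CSE libraries and 5, 9 and 4 in control libraries. Ptges was low too, with 31, 17 and 33 counts in CSE libraries and 7, 7 and 11 in control libraries. The 7 target genes not called were Il6, Icam1, Bcl2l1, Bcl2a1, Ptgs2, C3 and Tapbp. Nos2, Ccl20 and Cxcl2 were among those below the filter. Cxcl2 had 5, 18 and 12 counts with CSE and 0, 0 and 1 counts in the control.

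**Figure D5:**
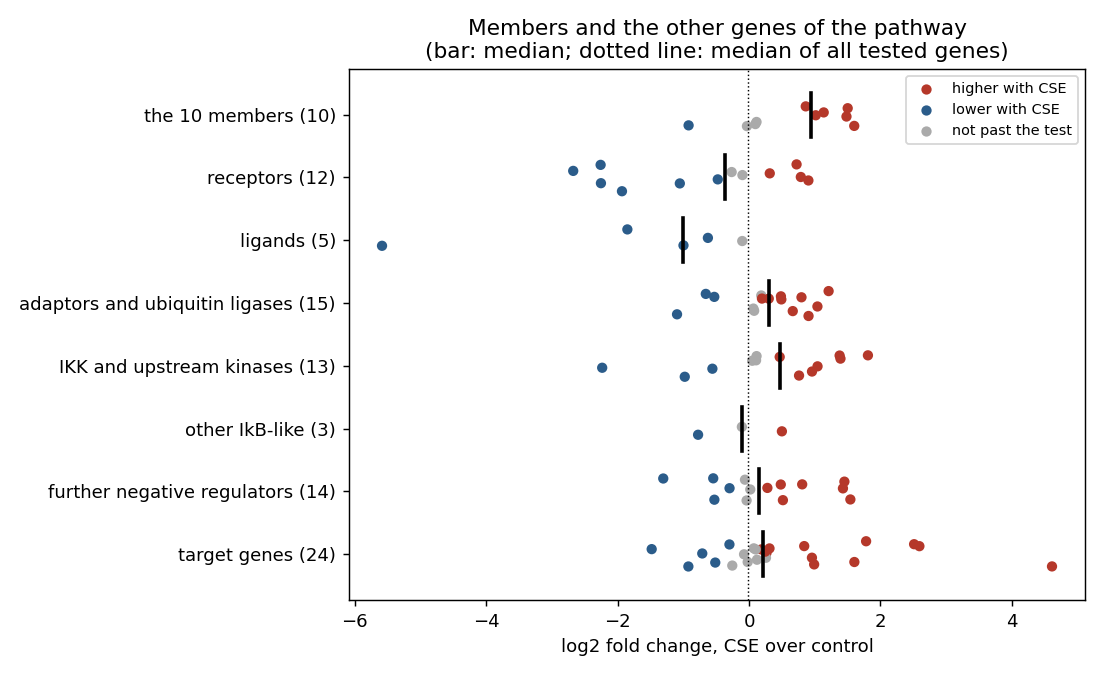
Log2 fold change of CSE over control (x axis) for the 10 members and the tested genes of 7 pathway lists, with the number tested in parentheses. Points are genes coloured by their call, black bars are list medians and the dotted line is the median of all tested genes. The members have a median of 0.94, the ligands −0.997 and the target genes 0.22 under TMM scaling; under total counts the target genes have 0.029.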

How the data were processed

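RNA abundance was measured by sequencing in 6 libraries, 3 given CSE and 3 controls. The authors deposited raw read counts per gene symbol, whole numbers with no normalization. HISAT2 2.0.4 and the build Rnor_6.0 are named, with no role, per the submitters' processing notes. The sources used here give no counting tool, annotation or strand setting, so antisense and overlapping genes may share reads. Columns were assigned by name to sample titles. A count of 0 allows up to 3 counts, or 0.142 to 0.177 CPM, covering counting error only. This limit is not applied to chromosome X, where nearly all named protein-coding genes were listed at 0.

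From these counts, filterByExpr of edgeR 4.0.16 (R 4.3.3) kept 13390 of the 21252 genes with any count, libraries were scaled by TMM, and CSE was compared with control by the 2-sided quasi-likelihood F test adjusted by Benjamini-Hochberg over every tested gene, at a threshold of 0.05. SE is the size of the log2 fold change over the square root of F. The script was tested on simulated counts in which most genes were unchanged. That run does not probe the scaling of data such as these, where 73.9% of tested genes passed. Chi-square per degree of freedom of replicate pairs lay between 3.24 and 5.74, so no library was counted as a repeat. Alternatives were no filter, 3 other scalings, DESeq2 1.42.0, limma-voom (limma 3.58.1), the replicate number as a block, and each library left out, 13 in all. Members and lists were chosen with earlier results of these data known. Besides the members, genes are named where a pathway list member passed with at least a 2-fold change and groups apart, up to 6 per list by adjusted p, or was listed at 0. Cell type markers came from a list of their own. Those named singly, and Tnf, Nos2, Ccl20 and Cxcl2, were picked after their values were seen. The receptor genes that rose and the target genes not called were added in full. Ikbkb and Chuk, of the IKK complex, were added after their values were seen. Promoter sequences are from RefSeq (GRCr8), whose gene table served otherwise for names, chromosomes and overlaps only.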

Additional observations from a re-analysis of the deposited data

How the results depend on the processing

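The 7 member calls kept their direction and passed in all 13 alternatives. So did those of the pathway genes named for at least a 2-fold change and of Cd44, Cxcl12, Cd14 and Cx3cr1. Under upper-quartile and total-count scaling the number of members called lower was 2 in place of 1, by the addition of Nfkb1. At least 2-fold rises numbered 3 in place of 5 under total counts, and 4 under upper-quartile scaling or without CSE replicate 1 or 3. Signs turned, with no call, for Nfkb2 (−0.023 upper-quartile, −0.074 total counts), Nfkbie (−0.040 and −0.092) and Nfkb1 (0.0038 without 1 CSE library, a leave-one-out range of −0.057 to 0.0038). Of all genes called, 49.2% were higher, or 40.3% with upper-quartile and 37.2% with total-count scaling. These scalings placed the log2 fold changes of the genes lower together than TMM did. Which scaling is right was not tested. No shared effect of the replicate number was seen (correlations of same-numbered deviations 0.02, −0.03 and 0.00094). These correlations cannot tell whether same-numbered libraries shared an animal or culture. With the replicate block 9756 genes passed in place of 9894, with the same 7 members.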
